A study of Mus musculus with 12 samples.

Results

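Chromatin accessibility with age was examined in hematopoietic stem cells (HSCs) that lack Mlkl. Of the 12 ATAC-seq libraries of the study, the 6 from Mlkl-/- mice were compared, 3 from young animals at 3 months and 3 from aged animals at 18 months of age. The remaining 6 libraries were from wild-type (WT) mice at the same ages, 3 per age, and served as the second genotype. ATAC-seq uses a transposase that cuts accessible DNA and tags it with adapters, and each library was represented by a list of summits, the positions of highest signal within called peaks. All mice were of the C57BL/6 background and none received a treatment. The Mlkl-/- mice carried the deletion in every cell and from birth, so that effects within HSCs and effects of other cells on them are not separated. HSCs were sorted from bone marrow as Lin-/cKit+/Sca1+/Flk2-/CD48-/CD150+ cells. Each library came from the pooled HSCs of several mice, with more mice in a young pool than in an aged pool, so that age and pool size cannot be told apart.

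HSCs sustain blood formation for life. With age they expand in number, give rise to fewer lymphoid and more myeloid and platelet-forming progeny, and lose repopulating capacity. MLKL is the pseudokinase that ruptures membranes at the end of necroptosis, downstream of the kinases RIPK1 and RIPK3. Accessible regions near a transcription start mark promoters, and those inside introns or between genes are mostly enhancers and other distal elements bound by transcription factors such as AP-1, RUNX, ETS and GATA proteins. The comparison addresses which of these regions gain or lose accessibility with age when MLKL is absent.

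Only summits with a score of at least 3 on chromosomes 1 to 19 and X were used, the score being the −log10 of the peak caller's q-value. Every list was reduced to its 35696 highest-scoring summits, the length of the shortest list, and windows of 250 bp on each side were merged over the 12 lists into 52774 regions. A list called a region if any of its summits fell there. Within a list, regions were ranked by score, with rank 1 the highest, and ranks were converted to normal scores, on which a region without a summit had a value between −0.817 and −0.742. An age difference is the mean normal score of the 3 aged lists minus that of the 3 young lists. It measures relative rank, not the amount of open chromatin, and a region open in fewer cells cannot be told apart from a region less open in each cell. The lists hold no read counts, so sequencing depth is unknown.

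The regions with the largest age differences, other than those in a UTR, are shown first as sequence, because the results below turn on them. The Fam131a region was left out for this reason, although its fall was slightly larger than that of Csmd3. Each line gives the reference sequence (mm10, plus strand) from 100 bases before to 100 bases after the highest summit, and capitals mark a match to the consensus of AP-1, ETS, RUNX, GATA, IRF, CEBP, PAR bZIP, CTCF or NF-kB. The first 4 were higher in aged Mlkl-/- HSCs and the next 3 were lower. The last pair are promoter regions, 1 that was called only in aged lists and 1 that was called only in young lists.
Kcna4 (higher, chr2:107231793-107231993): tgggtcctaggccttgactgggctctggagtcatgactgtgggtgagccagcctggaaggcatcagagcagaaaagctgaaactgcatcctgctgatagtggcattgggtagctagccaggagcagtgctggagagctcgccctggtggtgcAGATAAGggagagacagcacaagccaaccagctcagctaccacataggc
Gm5815 (higher, chr17:58643949-58644149): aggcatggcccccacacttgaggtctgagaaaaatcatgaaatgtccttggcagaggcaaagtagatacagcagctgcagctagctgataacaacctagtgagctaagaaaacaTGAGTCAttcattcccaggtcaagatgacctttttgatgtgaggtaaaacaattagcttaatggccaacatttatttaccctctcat
Farp1 (higher, chr14:121102691-121102891): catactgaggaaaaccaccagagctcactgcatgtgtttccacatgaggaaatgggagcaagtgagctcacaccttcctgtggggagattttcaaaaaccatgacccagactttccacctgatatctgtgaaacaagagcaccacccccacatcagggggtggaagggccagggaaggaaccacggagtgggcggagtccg
9330185C12Rik (higher, chr1:114039483-114039683): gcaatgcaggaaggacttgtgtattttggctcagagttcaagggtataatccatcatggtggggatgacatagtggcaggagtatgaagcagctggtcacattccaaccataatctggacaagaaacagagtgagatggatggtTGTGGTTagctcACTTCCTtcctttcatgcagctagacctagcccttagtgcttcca
Ifnlr1 (lower, chr4:135679436-135679636): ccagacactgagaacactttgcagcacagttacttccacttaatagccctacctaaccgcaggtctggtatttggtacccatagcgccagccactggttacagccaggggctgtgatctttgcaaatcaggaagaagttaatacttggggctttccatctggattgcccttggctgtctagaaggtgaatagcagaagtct
Gm44818 (lower, chr7:43554600-43554800): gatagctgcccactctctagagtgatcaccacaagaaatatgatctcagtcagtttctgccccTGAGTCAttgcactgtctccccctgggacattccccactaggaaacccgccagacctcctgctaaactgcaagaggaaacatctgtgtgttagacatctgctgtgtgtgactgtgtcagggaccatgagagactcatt
Csmd3 (lower, chr15:48583998-48584198): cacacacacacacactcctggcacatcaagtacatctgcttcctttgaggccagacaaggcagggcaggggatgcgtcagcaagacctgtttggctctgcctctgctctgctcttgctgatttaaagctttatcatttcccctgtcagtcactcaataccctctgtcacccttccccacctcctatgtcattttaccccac
Neu2 (gained promoter, chr1:87574827-87575027): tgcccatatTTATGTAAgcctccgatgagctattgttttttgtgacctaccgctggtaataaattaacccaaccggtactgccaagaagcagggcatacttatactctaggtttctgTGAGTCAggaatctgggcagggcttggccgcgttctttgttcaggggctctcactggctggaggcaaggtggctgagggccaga
Slc17a4 (lost promoter, chr13:23914021-23914221): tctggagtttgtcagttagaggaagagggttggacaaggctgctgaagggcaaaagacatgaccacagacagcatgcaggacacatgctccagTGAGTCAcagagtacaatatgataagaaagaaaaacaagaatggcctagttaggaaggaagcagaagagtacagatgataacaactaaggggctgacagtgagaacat

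Among the 4 higher regions, the window near Kcna4 held 1 GATA match, that near Gm5815 1 AP-1 match, that near 9330185C12Rik an ETS and a RUNX match, and the Farp1 window none. In the lower regions a match was present only beside Gm44818 (AP-1), and the Ifnlr1 and Csmd3 windows held none. Both promoter windows, at Neu2 and at Slc17a4, contained an AP-1 match, and Neu2 a PAR bZIP match besides.

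Of 38051 regions called in at least 3 of the 12 lists, 109 were higher (0.286%) and 10 were lower (0.0263%) in aged than in young Mlkl-/- HSCs at an adjusted p under 0.01 (limma over all tested regions). At an adjusted p under 0.05, 502 regions were higher (1.32%) and 156 lower (0.41%). Among all tested regions no such excess was present, since 47.9% of the age differences were positive and the median was −0.02. Of the 109 higher regions, 63 were called in all 3 aged and in none of the 3 young lists, and 16 were called in all 6. For the 63, the young values were those shared by uncalled regions, so their spread was not one between pools. Of the 10 lower regions, 4 were called in all 3 young and no aged list. The values of the young and aged lists did not overlap for 3312 regions above (8.7%) and 3976 below (10.4%) among all tested, and for all of the 119. The number that passed depended on single libraries. It was 41, 44 and 49 without young Mlkl-/- replicate 1, 2 and 3, and 12, 11 and 19 without aged Mlkl-/- replicate 1, 2 and 3. Since the WT libraries entered the estimate of spread, it was also 40 and 78 without aged WT replicate 1 and 2, and with the 6 Mlkl-/- libraries alone only 2 regions passed. With list length as a covariate 23 passed.

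The strongest gain lay on chromosome 2 (chr2:107231635-107232159), between genes and 58.7 kb from the start of Kcna4, which encodes a voltage-gated potassium channel. It held no summit in the 3 young lists, not even among summits of lower score that had been removed, and ranked 132, 185 and 864 in the 3 aged lists. It thus moved from undetected to near the top of the 30063 to 30500 regions called in each aged list. The age difference was 3.33 ± 0.24 (SE, n = 3 per age, limma adjusted p = 7.47e-08). On chromosome 17 (chr17:58643557-58644313), 50.4 kb from the predicted gene Gm5815, a region without a young summit ranked 1980, 1803 and 1848 in the aged lists. Its difference was 2.58 ± 0.25 (limma adjusted p = 6.42e-06), and a second region 139 kb from the same nearest coding gene, Pdzph1, was also higher (1.89). An intronic region of Farp1 (chr14:121102505-121103041, 67.2 kb from the start), was likewise absent in young lists. It ranked 5217, 2592 and 2095 in the aged lists (difference 2.34 ± 0.26, limma adjusted p = 6.61e-05).

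A region on chromosome 1 (chr1:114039333-114039871), 75.4 kb from the noncoding gene 9330185C12Rik, was already open in 2 young lists. It ranked 15382 and 18218 in young replicates 1 and 2, was not called in young replicate 3, and ranked 486, 468 and 333 in the aged lists (difference 2.34 ± 0.35, limma adjusted p = 0.0014). Within the noncoding gene Gm29683, 86.1 kb from the start of Nr2f2, which encodes the orphan nuclear receptor COUP-TFII, a region absent in the young lists ranked 1545, 5420 and 4965 when aged (2.27 ± 0.27, limma adjusted p = 0.000199). The neighbours of Gm16042 and Gm38839 on chromosome 6 and of Gm48470 on chromosome 13 also had no young calls, with differences of 2.17, 2.16 and 2.04. Near Gm16042 and near Gm38839, 1 young list held a summit of lower score.

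Introns of Msi2 and Acadm contained the last pair of the 10 largest gains. Msi2 encodes Musashi-2, an RNA-binding protein that supports HSC self-renewal. Its intronic region (chr11:88686956-88687480, 30.9 kb from the start) was called in no young list and ranked 8822, 2955 and 5811 in the aged lists. The difference was 2.04 ± 0.30 (limma adjusted p = 0.00138). Here 2 of the 3 young lists did hold a summit of lower score, so the region was weaker there rather than without signal. Acadm encodes the medium-chain acyl-CoA dehydrogenase of mitochondrial fatty acid oxidation, and its region (chr3:153929416-153929946) ranked 3898, 6982 and 5830 when aged and was not called when young (2.04 ± 0.31, limma adjusted p = 0.00188). In 1 young list it held a summit of lower score.

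**Figure D1:**
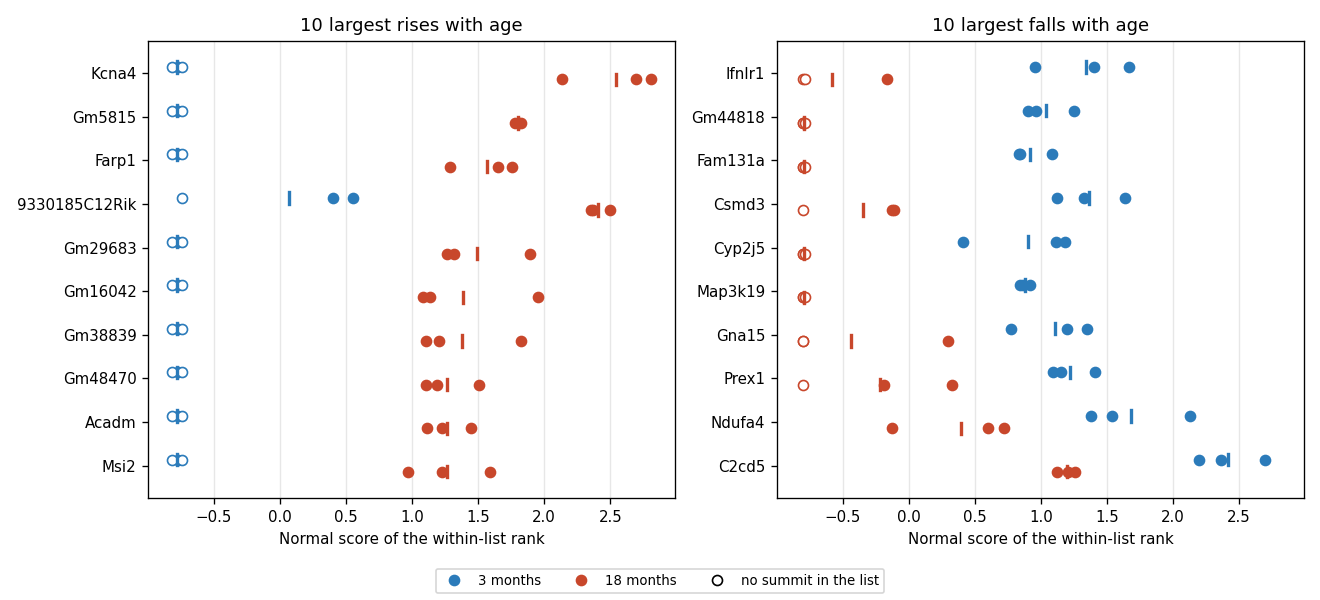
Normal score of the within-list rank (x axis) for the 10 regions with the largest rises (left) and the 10 with the largest falls (right) with age in Mlkl-/- HSCs, named by the gene they lie in or the nearest start. Each point is 1 list (blue 3 months, red 18 months, open points without a summit), bars are means of 3 lists. Regions were chosen among those whose values did not overlap, and for 9 of the 10 rises no young list had a call.

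The strongest loss lay 6.75 kb from the start of Ifnlr1, the gene for the ligand-binding chain of the type III interferon receptor (chr4:135679229-135679830). This region ranked 2542, 8922 and 4249 in the young lists and 29918 in aged replicate 1, and was not called in aged replicates 2 and 3. The difference was −1.93 ± 0.25 (limma adjusted p = 0.000416). All 3 aged lists still had a deposited summit there, which shows a fall in rank and not a closed site. Of all 10 lower regions, 8 held such a summit in all 3 aged lists, Gm44818 and Fam131a among them, and 0 held none in any. A region beside Gm44818 on chromosome 7 ranked 5572, 8840 and 9675 when young and was called in no aged list (−1.84, limma adjusted p = 0.00434). In a UTR of Fam131a on chromosome 16, ranks of 10727, 10541 and 7345 when young were also followed by no aged call (−1.72, limma adjusted p = 0.00428).

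Another 7 regions were lower. The promoter region of Gna15, which encodes a G protein alpha subunit of hematopoietic cells (chr10:81523813-81524748, 0.23 kb from the start), ranked 6097, 4715 and 11643 in the young lists. It ranked 20186 in aged replicate 3 and was not called in the other aged lists (−1.54 ± 0.29, limma adjusted p = 0.00941). An intronic region of Prex1, a Rac exchange factor that acts downstream of G proteins and phosphoinositide 3-kinase, went from ranks of 6579, 4193 and 7235 to 30277 and 19649 with 1 aged list uncalled (−1.44, limma adjusted p = 0.00966). A coding exon of Map3k19, a protein kinase gene, ranked 10520, 9488 and 10185 in the young lists and was called in no aged list (−1.67, limma adjusted p = 0.00907). The C2cd5 intron was among the most prominent regions of young cells, with ranks of 185, 478 and 740, and it remained called at ranks of 6025, 5531 and 6894 in aged cells (−1.23, limma adjusted p = 0.00778). The other 3 of the 10 lower regions lay in an intron of Csmd3 (−1.71), 32.6 kb from Cyp2j5 (−1.70) and 180 kb from Ndufa4 (−1.28).

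Of the 119 regions, 7 passed whichever of the 12 libraries was left out. They were those near Kcna4, Gm5815 and Ifnlr1, those in Farp1 and Gm29683, and 2 that were picked out only after their values had been seen, in introns of Ros1 and Fstl5. Ros1, a receptor tyrosine kinase gene, ranked 18942, 18994 and 27622 in young and 2783, 736 and 395 in aged lists (1.87, limma adjusted p = 0.00039). Fstl5, which encodes a secreted follistatin-like protein, ranked 11984, 18386 and 12792 in young and 583, 396 and 240 in aged lists (1.83, limma adjusted p = 1.4e-05). Both regions were thus called at both ages and rose within the called range.

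Regions that switched between all and none of the lists were counted apart from any test. With age, 993 of the 52774 regions were gained, with calls in every aged list and 0 young lists (1.88%), and 576 were lost, with calls in every young list and 0 aged lists (1.09%). Called in all 6 lists were 17669 regions. Gains made up 63.3% of these switches on lists of equal length and 89.2% on lists of unequal length, where 1886 were gained and 228 lost, so this balance depended on the reduction of the lists. A switch often meant that a summit fell below the cut to equal length, which lay above the score limit of 3 in most lists. Of the lost regions, 203 (35.2%) still held a deposited summit in all 3 aged lists and 61 (10.6%) held none in any. Of the gained regions, 7 (0.705%) held one in all 3 young lists and 432 (43.5%) in none. The gained and lost shares cannot be compared, because they depend on list length. Young replicate 3 was the shortest list, so the cut to equal length removed none of its summits. A leftover summit in all 3 young lists was therefore rarely possible.

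Gained regions were distal. Positions less than 1 kb from a start accounted for 37.0% of the tested regions, 7.05% of the gained, 20.3% of the lost and 3.67% of the 109 higher regions. Intergenic positions over 50 kb from any start made up 3.53% of the tested, 11.1% of the gained, 2.43% of the lost and 20.2% of the higher regions. The median distance to a start was 5.03 kb for tested, 17.5 kb for gained, 9.19 kb for lost and 24.7 kb for higher regions. The base composition moved in parallel. Median GC content within 100 bases of the summit was 50.7% for the tested regions away from starts, 46.8% for the gained and 51.2% for the lost ones at such positions. Of the higher regions, 2.75% lay mostly in masked repeats, against 2.68% of all tested and 3.81% of the tested regions away from starts. The part of GC content in the calls was not tested.

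**Figure D2:**
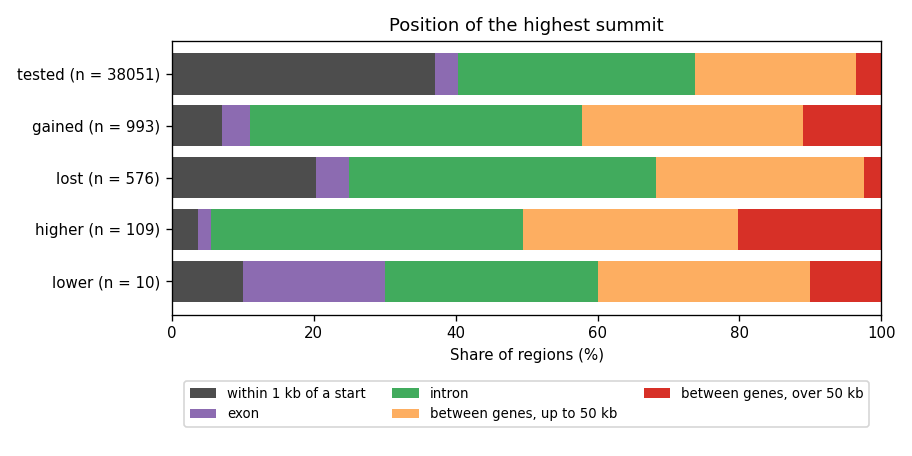
Share of regions (x axis, %) by position of the highest summit for all tested regions, the gained and lost regions and those higher or lower with age at an adjusted p under 0.01. The part within 1 kb of a start is 37.0% of tested but 7.05% of gained and 20.3% of lost regions.

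By chromosome, 14 of 2216 tested regions were higher on chromosome 6, 12 of 2105 on chromosome 3 and 11 of 2410 on chromosome 1. The number was 1 of 2343 on chromosome 5 and 1 of 1000 on chromosome 19, against 0.286% of all tested. Differences between chromosomes were not tested. On X, 0 of 936 tested regions passed, a count too small to read at that share. Of 1334 X-linked regions, 20 were gained and 12 lost, against 1.88% and 1.09% of all regions. In 2 genes, chosen after the counts were seen, 3 regions were gained, which was the highest number for any gene. Ryr2, the gene of the ryanodine receptor calcium release channel, gained 3 of its 7 regions, with differences of 1.80, 1.59 and 1.27. The first of these passed (limma adjusted p = 0.00871) and the others did not (0.0134 and 0.0654). Nrg1, which encodes the growth factor neuregulin 1, gained 3 of 13 regions with differences of up to 1.23, none of which passed (limma adjusted p between 0.0444 and 0.106), and lost 1 region.

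Regions at protein-coding promoters were counted separately. Among 14051 regions within 1 kb of a coding start, 97 were lost (0.69%, against 1.09% of all regions) and 33 gained (0.235%, against 1.88%). This balance depended on list length, since with lists of unequal length, a count added after seeing the data, 18 were lost and 121 gained of 15423. At an adjusted p under 0.01, 3 were higher and 1 lower. The higher ones were at Khdrbs2 (1.55), Myh14 (1.03) and Znrd1 (0.96), and the lower one was at Gna15. The 8 lost promoters with the highest mean normal score when young included those of Slc17a4, an organic anion transporter gene, of Sphk1, which encodes the kinase that makes sphingosine 1-phosphate, and of Naip5, a sensor of bacterial flagellin in the inflammasome. The Slc17a4 region (chr13:23913871-23914420) ranked 8199, 16529 and 8746 in young lists and was not called in any aged list (−1.62 ± 0.32, limma adjusted p = 0.0115). At Sphk1 the young ranks were 16331, 20375 and 8875 (−1.38, limma adjusted p = 0.0471), and at Naip5 they were 15086, 24695 and 12525 (−1.25, limma adjusted p = 0.0354). The others, Rnf220, Calm4, Robo2, Haao and Fam222b, had differences between −1.52 and −1.24. None of the 8 passed the threshold of 0.01. Calm4, Robo2 and Naip5 still held a deposited summit in all 3 aged lists, and each of the others in at least 1. In aged WT HSCs, the Naip5 region was called in all 3 lists.

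The 8 gained promoters were chosen in the same way, by their mean normal score when aged. The region at Neu2, a cytosolic sialidase gene (chr1:87574660-87575188, 0.9 kb from the start), ranked 13873, 10427 and 18376 in the aged lists and was called in no young list (1.40 ± 0.35, limma adjusted p = 0.0382). The promoter region of Prkcz, the gene of atypical protein kinase C zeta, ranked 11161, 26796 and 16797 when aged (1.20, limma adjusted p = 0.0627). For Lpcat1, an enzyme of phosphatidylcholine remodelling, the aged ranks were 8124, 15104 and 27856 (1.28, limma adjusted p = 0.0763). Kctd15, Ccdc85a, Arl11, Cacnb4 and A530032D15Rik completed the 8, with differences between 1.04 and 1.13, and none of the 8 passed. Summits of lower score were deposited in 2 young lists for Kctd15, Ccdc85a and Cacnb4. For Neu2, Prkcz, Lpcat1 and A530032D15Rik there was 1 such list, and for Arl11 none.

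Consensus matches around the summit were counted as a description. The letters searched on both strands were TGANTCA for AP-1, AGGAAGT for ETS, TGTGGTT for RUNX, AGATAAG for GATA, GAAANNGAA for IRF, TTGCNNAA for CEBP and TTACNTAA for PAR bZIP, and longer motifs of CTCF and NF-kB were searched too. Some matches can overlap, as the IRF and ETS letters share GAA. Away from starts, AP-1 letters were present in 13.6% of tested, 20.9% of gained and 12.6% of lost regions. RUNX letters were present in 14.4% of tested, 21.0% of gained and 17.9% of lost regions, and CEBP letters in 9.48%, 12.2% and 6.32%. The IRF shares were 8.23%, 11.4% and 7.19%. GATA letters were in 5.85% of tested, 6.72% of gained and 8.06% of lost regions. ETS shares were close together, at 20.7%, 19.4% and 21.6%. CTCF was less frequent among regions that switched, with 5.56% of tested, 0.975% of gained and 2.40% of lost regions. NF-kB was in 0.388% of tested, 0 of 923 gained and 4 of 459 lost regions. PAR bZIP letters were in 2.00%, 2.60% and 1.74%. For the 109 higher regions, the shares are first set against all 38051 tested regions, a background with more promoters (37.0% against 3.67%). They were 22.9% against 10.1% for AP-1, 22.9% against 16.0% for ETS, 16.5% against 10.4% for RUNX, 12.8% against 4.14% for GATA and 14.7% against 7.72% for CEBP. They were 7.34% against 6.76% for IRF and 0% against 0.415% for NF-kB. PAR bZIP letters were in 4 of the 109 and 572 of the 38051 regions, and CTCF in 2 and 1521. The tested regions away from starts are closer in position to the higher ones. Set against them, the shares were 22.9% against 13.6% for AP-1, 22.9% against 20.7% for ETS and 16.5% against 14.4% for RUNX. They were 12.8% against 5.85% for GATA, 14.7% against 9.48% for CEBP and 7.34% against 8.23% for IRF.

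**Figure D3:**
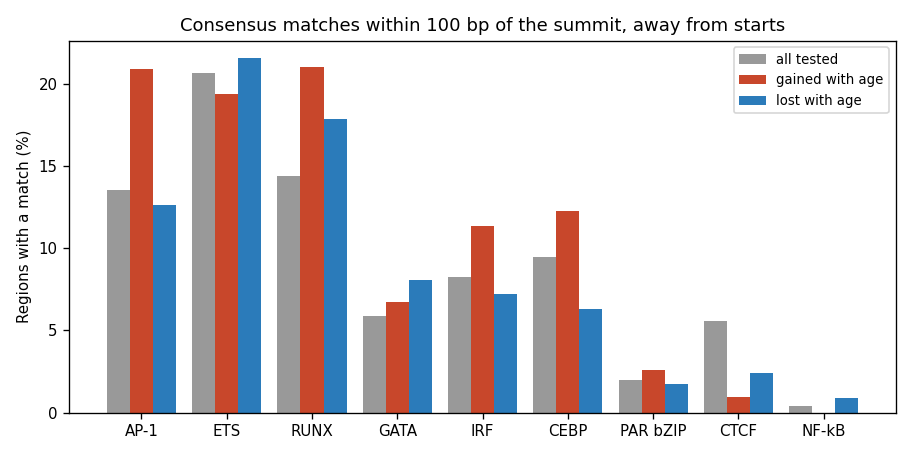
Share of regions (y axis, %) with a consensus match within 100 bp of the summit, for regions over 1 kb from any start, in all tested (grey, n = 23959), gained (red, n = 923) and lost regions (blue, n = 459). AP-1 stands at 20.9% of gained against 13.6% of tested regions, and CTCF at 0.975% against 5.56%.

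The same regions were compared with ageing in WT HSCs, which shares no library with the Mlkl-/- comparison. Both age differences came from the same fit and used the same estimate of spread for each region. A region chosen for passing in Mlkl-/- HSCs therefore passes more easily in WT, and the counts that passed in both are not independent. In WT, 80 regions were higher (0.21%) and 29 lower (0.0762%) with age, and 803 were gained (1.52%) and 831 lost (1.57%). Of the 109 regions higher in aged Mlkl-/- HSCs, 108 had a difference of the same sign in WT and 41 passed there too. Of the 10 lower regions, all 10 had the same sign in WT and 3 passed. Of the 993 gained regions 863, and of the 576 lost regions 493, had a difference of the same sign in WT. Gained in both genotypes were 267 regions (26.9% of those in Mlkl-/- and 33.3% of those in WT), and lost in both were 135 (23.4% and 16.2%). Over all tested regions, 64.4% had the same sign in both genotypes, with a Spearman correlation of 0.46 across regions, which share their libraries and are not independent.

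The difference between genotypes was tested itself. Of the tested regions, 0 (0%) passed the interaction of age and genotype at an adjusted p under 0.01 (limma, lowest adjusted p = 0.979). An unadjusted p under 0.05 (limma) was found for 1787 of 38051 regions, no more than this threshold gives where no region differs. At Ifnlr1 the WT lists ranked 2793, 6725 and 4987 when young and 14308, 18060 and 14545 when aged, so the region was called in all 6. The age difference was −0.82 in WT and −1.93 in Mlkl-/-, and the interaction was −1.11 (limma, unadjusted p = 0.00441, adjusted p = 0.979). The region near Cyp2j5 was called in all 6 WT lists and differed by −0.05 there (interaction −1.65, limma unadjusted p = 0.000943, adjusted p = 0.979). At the Gna15 promoter the WT difference was −0.63 (interaction −0.91, limma adjusted p = 0.979). These regions had been chosen for their falls in Mlkl-/- HSCs, which favours a negative interaction. Of the other lower regions, C2cd5 (WT −1.74, interaction 0.52), Fam131a (WT −2.06, interaction 0.34) and Gm44818 (WT −1.86, interaction 0.02) fell at least as much in WT. The rest had a negative interaction. With 3 lists per group these differences were not separated from the spread between lists once all regions were considered.

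**Figure D4:**
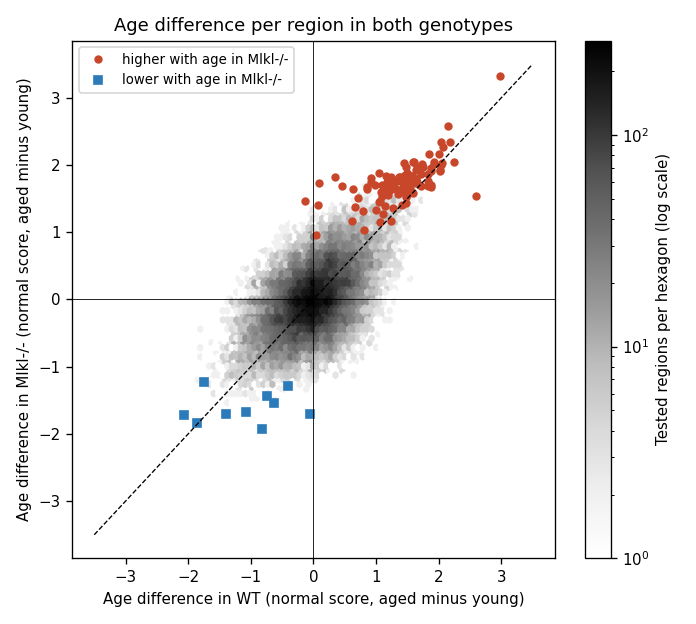
Age difference in normal score for each of 38051 tested regions in WT (x axis) and in Mlkl-/- HSCs (y axis), with the density of regions in grey and the dashed line at equal differences. Of the 109 higher regions (red) 108 lie right of 0, and all 10 lower regions (blue) lie left of 0.

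Gene lists for HSC ageing, lineage, inflammation and related processes were described by the regions in or within 10 kb of their genes. Across 16 lists with 288 genes, 2 regions passed at an adjusted p under 0.01, that near Ifnlr1 in the interferon list and an intronic region of Ezh1 in the list of chromatin regulators. With 0.286% higher and 0.0263% lower among all tested regions, 1.88% gained and 1.09% lost, lists of 25 to 118 tested regions would hold few or none at these shares, and a count of 0 says nothing about a list. Ezh1 encodes a histone H3 lysine 27 methyltransferase of Polycomb repressive complex 2, linked to HSC quiescence. Its region (chr11:101221257-101221893, 4.88 kb from the start) was called in no young list and ranked 10291, 9267 and 8801 in the aged lists. The difference was 1.70 ± 0.32 (limma adjusted p = 0.00927), and 2 young lists held a summit of lower score. The other chromatin regulators did not pass, and the largest fall was near Tet2 (−0.93, limma adjusted p = 0.179), which encodes an enzyme that oxidises 5-methylcytosine.

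For 24 genes reported to change with HSC age, 0 of 64 tested regions passed, 3 were gained and 2 lost, and the median difference was 0.14 against −0.02 over all tested regions. Of the 64, 40 differences were positive. Values did not overlap between ages for 13 above (20.3%, against 8.7% of all tested) and 5 below (7.81%, against 10.4%). The gained regions lay near the metallothionein genes Mt1 and Mt2, near Neo1, the netrin receptor neogenin, and near Sbspon. The largest rise, near Sbspon, had no young call and aged ranks of 8359, 20704 and 15428 (1.38, limma adjusted p = 0.0585). The largest fall was in an intron of Mllt3, a regulator of HSC maintenance, with ranks of 6117, 8293 and 16298 when young and 21088 with 2 lists uncalled when aged (−1.35, limma adjusted p = 0.0422). Regions were also lost near Vwf and Ghr.

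AP-1 genes had mostly negative differences. Of 33 tested regions at 10 genes, 0 passed at 0.01, 8 differences were positive, and the median was −0.20. Values did not overlap between ages for 2 above (6.06%) and 9 below (27.3%, against 10.4% of all tested). The 2 extremes both belonged to Jun. Its promoter region (chr4:95052037-95052949) was called in all 6 lists and ranked 2032, 2590 and 3406 when young and 14341, 9823 and 14682 when aged (−0.95 ± 0.20, limma adjusted p = 0.0173). A region in the UTR of the same gene, 2.82 kb from the start, had no summit in any young list and ranked 15003, 16670 and 20504 when aged (1.22 ± 0.33, limma adjusted p = 0.0551). Among other immediate-early genes, 0 of 44 regions passed, the median was −0.05, and the extremes were the promoters of Nr4a3 (0.87, limma adjusted p = 0.188) and Dusp1 (−0.91, limma adjusted p = 0.063). Dusp1, a MAP kinase phosphatase, ranked 7684, 12582 and 2371 when young and 28301, 17323 and 18407 when aged.

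Genes of HSC identity were divided into transcription factors and surface proteins. For the transcription factors, 0 of 118 regions passed, 2 were gained and 2 lost, and the median was −0.03. An intronic region of Runx1, required for the emergence of HSCs, was gained with aged ranks of 18554, 11297 and 24279 (1.20, limma adjusted p = 0.0551). Prdm16, which maintains HSCs, gained 1 region and lost another with young ranks of 24802, 21330 and 15858 (−1.07, limma adjusted p = 0.101). For surface and niche genes, 0 of 51 regions passed and the median was 0.14, with 33 positive. Their extremes were near Procr, the gene of the endothelial protein C receptor (0.87, limma adjusted p = 0.262), and in an intron of Cd34 (−0.72, limma adjusted p = 0.294).

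Lineage genes gave no region at an adjusted p under 0.01. In the megakaryocyte and platelet list, 0 of 63 regions passed (median −0.08). A region near Vwf, which encodes von Willebrand factor, was lost, with young ranks of 23867, 28396 and 19773 (−0.90, limma adjusted p = 0.13), and a region near Selp, the P-selectin gene, had a difference of 0.84 (limma adjusted p = 0.175). In the lymphoid list 0 of 61 passed (median −0.04), with a lost intronic region of Flt3, the receptor of multipotent progenitors, at young ranks of 17871, 18486 and 23394 (−1.11, limma adjusted p = 0.061), and a region near Gata3 at 0.94 (limma adjusted p = 0.166). The myeloid list had 0 of 29 (median −0.13, with 8 positive), extremes being Fcgr3 (0.37, limma adjusted p = 0.702) and an Irf8 intron (−0.77, limma adjusted p = 0.329). The erythroid list had 0 of 25 (median −0.07). Its largest rise was at the start of Gcdh, a mitochondrial dehydrogenase gene within 10 kb of Klf1, ranked 3631, 2004 and 8341 when young and 1047, 461 and 377 when aged (0.87, limma adjusted p = 0.0297). The largest erythroid fall was near Car2 (−0.84, limma adjusted p = 0.335).

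In the list of TNF and NF-kB genes, 0 of 58 regions passed, 16 differences were positive and the median was −0.18. Of 2 regions near Cxcl2, a neutrophil chemokine gene, 1 was lost (−0.88), the only lost region of the list. The other, 3.49 kb from the start, had the largest rise, with ranks of 13359, 7345 and 7395 in aged lists and 16026 in a single young list (1.29, limma adjusted p = 0.0289). The largest fall was near Rela, which encodes an NF-kB subunit (−0.89, limma adjusted p = 0.225). In the interferon list, 1 of 47 passed, near Ifnlr1, and the median was 0.02. An intronic region of Ifit2, an interferon-induced gene, had a difference of 0.87 (limma adjusted p = 0.286), and Oas1a lost 1 region. For the 13 necroptosis genes, 0 of 26 regions passed, none was gained or lost, and the median was −0.07. Values did not overlap for 0 above and 2 below (7.69%, against 10.4% of all tested). The extremes were a region near Cflar and Casp8, regulators of death receptor signalling (0.84, limma adjusted p = 0.197), and the promoter of Birc3, a ubiquitin ligase of the same pathway (−0.44, limma adjusted p = 0.349).

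Mitochondrial genes gave 0 of 69 regions, with none gained or lost and a median of −0.05. Values did not overlap for 1 above (1.45%, against 8.7% of all tested) and 11 below (15.9%, against 10.4%). The extremes were an intronic region of Sirt3, a mitochondrial deacetylase gene, with aged ranks of 14958, 11854 and 25522 against 26975 in a single young list (0.97, limma adjusted p = 0.185), and the promoter of Ucp2, an uncoupling protein gene, with young ranks of 24111, 17090 and 16332 against 30364 in a single aged list (−0.95, limma adjusted p = 0.179). Cell cycle and quiescence genes gave 0 of 54 (median −0.05), with extremes in an intron of the cyclin-dependent kinase gene Cdk6 (1.11, limma adjusted p = 0.132) and in Rcbtb2 beside the tumour suppressor gene Rb1 (−1.07, limma adjusted p = 0.0738). In the TGF-beta and BMP list 0 of 79 passed (median −0.04). An intronic region of the receptor gene Tgfbr2 ranked 3631, 12651 and 6014 when young and 26179 and 13648 with 1 list uncalled when aged (−1.18, limma adjusted p = 0.0383), and the largest rise was in an intron of Smad4 (0.92, limma adjusted p = 0.173). In the remaining 12 lists the share without overlap was between 0% and 10.2% above and between 5.88% and 19.1% below. The signs of the list medians held under other scalings for HSC ageing, HSC surface and chromatin genes (positive) and for AP-1, immediate-early, TNF and NF-kB, myeloid, megakaryocyte and cell cycle genes (negative). The remaining 7 lists changed sign under at least 1 of them.

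**Figure D5:**
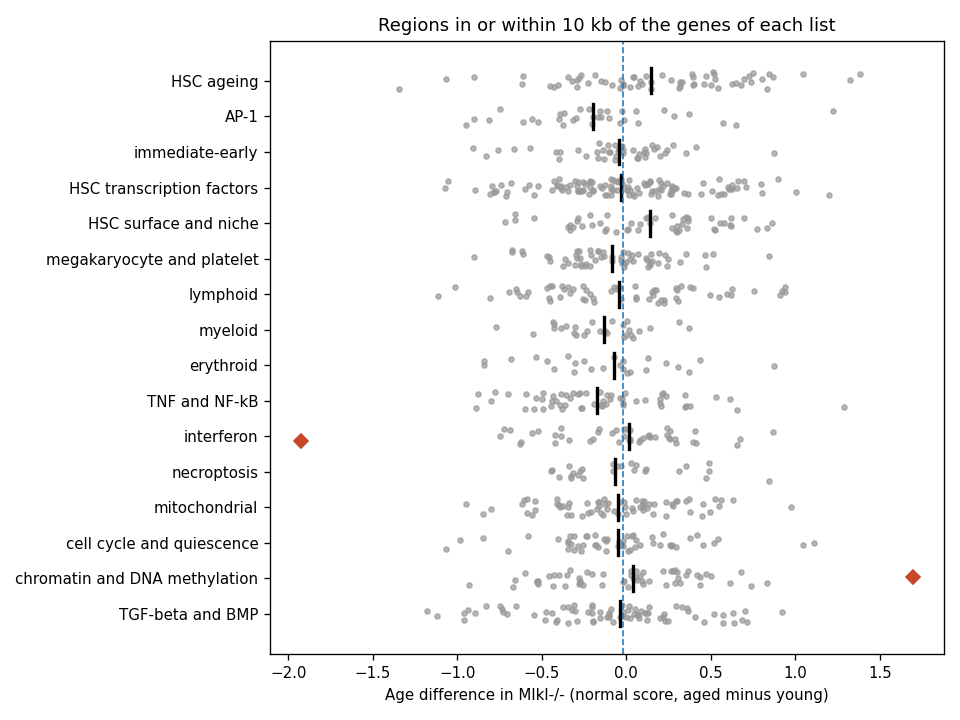
Age difference in normal score (x axis) of each tested region in or within 10 kb of the genes of 16 lists (y axis), with black bars at list medians and the dashed line at the median of all tested regions (−0.02). The 2 red diamonds, near Ifnlr1 (−1.93) and in Ezh1 (1.70), are the regions that passed at an adjusted p under 0.01.

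The targeted gene did not test the genotype label, since a start can be open whether or not its product is made, and the extent of the deletion was not used here. The Mlkl promoter region (chr8:111337923-111338851) ranked 22950, 26314 and 21012 in the young Mlkl-/- lists, and 26723 and 25535 in the aged lists with replicate 2 uncalled (−0.40 ± 0.37, limma adjusted p = 0.666). A region 5.27 kb from the start differed by 0.47 ± 0.39 (limma adjusted p = 0.62). Of 12 HSC marker genes, 5 to 7 had a summit within 1 kb of a start in each list, with Kit, Hlf, Tal1 and Meis1 present in all 6 and Mecom, Esam, Fgd5 and Slamf1, which encodes the CD150 used in the sort, in none. Among markers of other cells, 0 or 1 of 5 T cell and 0 or 1 of 7 granulocyte and monocyte genes were open per list, with Cd3e, Elane and Mpo in none. There was 1 of 5 for B cells (Ebf1), 1 to 2 of 5 each for erythroid and for stromal and endothelial genes, and 3 of 5 for megakaryocytes (Pf4, Gp9 and Itga2b) in every list. Bcl11b, a T cell gene, was open in 2 young and 0 aged lists, and Lyz2, a myeloid gene, in 1 young and 0 aged lists. Gata2, a stem and progenitor cell gene, was open in 0 young and 2 aged lists. The part of other cell types in the results was not tested.

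Properties of whole lists varied within each age. The young lists held 46985, 56329 and 35696 summits and the aged lists 57821, 47007 and 61465. The means were 46337 ± 10332 and 55431 ± 7519 (SD, n = 3), and the difference of 9094 was within the spread (exact two-sided permutation test, p = 0.2, smallest possible p = 0.1). On lists of equal length, 48.6%, 44.3% and 53.3% of young and 45.9%, 45.4% and 47.7% of aged summits lay within 1 kb of a start (difference −2.39 percentage points, exact permutation p = 0.6). The Jaccard index, the regions shared by 2 lists divided by those in either, averaged 0.673 for the 6 pairs of the same age and 0.626 for pairs of different age. The difference of 0.0468 gave the smallest p possible (exact permutation test, p = 0.1). The most similar pair was aged 1 and aged 3 (0.699), and the least similar was young 3 and aged 2 (0.585). The aged pairs lay between 0.687 and 0.699, and the young pairs at 0.676, 0.660 and 0.622. The last of these, young 2 and young 3, was below the mean for pairs of different age.

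Mice of both sexes were used, and the sex of each pool was not given. Summits at starts of the Y-linked genes Ddx3y, Uty and Eif2s3y were present for 3 genes in young replicate 1 and for 2 in young replicate 2, and for 0 in young replicate 3 and in all aged lists. With the presence of such summits as a covariate, 11 regions passed, and without the libraries that carry them, 3 passed. Since this leaves a single young Mlkl-/- list, whose spread was taken from the other groups, sex and age cannot be told apart in these libraries.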

How the data were processed

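ATAC-seq libraries from sorted mouse HSCs were analysed from the deposited summit lists, with 3 libraries in each of 4 groups. According to the methods and the submitters' processing notes, the authors aligned single reads to mm10 with Bowtie2 2.5.3 and called peaks in each library separately with MACS2 2.2.7.1. The notes also name bedtools 2.31.0 and edgeR 3.30.3. The deposited value of a summit is the −log10 of its q-value, and the lowest deposited values were between 2.00 and 2.01 in every list. The values carry no read counts, so the precision of a single rank is unknown. Lists of 36805 to 63125 deposited summits were reduced to the 35696 highest on chromosomes 1 to 19 and X with a value of at least 3, since a deeper library yields more and higher values.

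Windows of 250 bp on each side were merged, ties were broken at random with a fixed seed, and ranks became normal scores in which regions without a summit shared the lowest value. Regions called in at least 3 lists were fitted with limma 3.58.1 (R 4.3.3) over 12 libraries with 4 group means and moderated variances with a trend. The p-values were adjusted by Benjamini-Hochberg over 38051 regions at a threshold of 0.01. The lists of HSCs pooled from several mice were the replicates, so p-values measure the spread between the lists of these pools. Where no list of a group had a call, that spread is not variation between pools. It is only the difference between the values that uncalled regions share within each list (SD 0.0377 over the 3 young lists at Kcna4). The p-values of such regions are limited by this. Whole-list values were tested by permuting the age labels of 3 against 3 libraries exactly, two-sided.

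Genes and starts came from GENCODE vM21, and sequences from the RefSeq GRCm38.p6 genome, with 20 chromosomes matched and 0 summits beyond a chromosome end. Named regions were the 10 rises and 10 falls with the largest change among those that passed without overlap, those that passed near a listed gene, the 8 gained and the 8 lost coding promoters with the highest normal score in the age where called, the extremes of each gene list, and Mlkl. The comparison, the members and the 16 gene lists were chosen with earlier results of these data known. The lists were for HSC ageing, AP-1, immediate-early, HSC transcription factor, HSC surface, megakaryocyte, lymphoid, myeloid, erythroid, TNF and NF-kB, interferon, necroptosis, mitochondrial, cell cycle, chromatin, and TGF-beta and BMP genes. Scripts were tested on simulated data. Python 3.11.15, pandas 2.3.3, numpy 2.4.6, scipy 1.17.1 and matplotlib 3.10.9 were used.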

Additional observations from a re-analysis of the deposited data

Results flagged for a closer look

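Summits on the Y chromosome were outside the main comparison, and they were uneven between the libraries. Young Mlkl-/- replicate 1 had a summit at the start of 3 Y-linked genes (Ddx3y, Eif2s3y and Uty), above the highest count in a WT library, which was 2. The part of the sex of the pools in the age differences was not tested beyond the covariate and the exclusion given above. Outliers within groups were not sought, since each group had 3 libraries.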

How the results depend on the processing

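The count of 119 regions that passed with age in Mlkl-/- HSCs moved by over 1.5 times under several choices. It was 658 at an adjusted p under 0.05, 251 with lists of unequal length, 47 with a replicate block, 23 with list length as a covariate, 19 with percentiles in place of normal scores, 6 with the 9 libraries that share a file-name tag, 4 with a catalogue of the 6 Mlkl-/- lists and 2 with only these 6 libraries. With choices made after seeing the data it was 11 with Y-linked gene summits as a covariate and 3 without the libraries that had such summits. It was between 11 and 106 when single libraries were left out. The regions near Kcna4 and Gm5815 passed under all 28 settings, Farp1 under 26, Ifnlr1 and Gm29683 under 24, Msi2 under 21, Ezh1 under 9 and Gna15 under 6, and no named region that passed changed its direction. Gained regions numbered 1886 and lost regions 228 with lists of unequal length, 2269 and 1542 with the tagged libraries, and 3378 and 3566 without libraries with Y-linked gene summits. Leaving out single libraries gave 1299 to 1638 gained and 816 to 1206 lost regions, since fewer lists then had to differ. No region passed the interaction under any setting in which it could be computed, which excludes those with only Mlkl-/- lists. For same-numbered young and aged libraries the deviations correlated at −0.04, 0.09 and 0.14, and for other pairs between −0.19 and 0.11. With so few pairs this does not settle whether the libraries were paired. The replicate numbers were not used as pairs in the main fit. The covariate for Y-chromosome summits as first planned was not run, as every list held such summits. The cause of these changes was not tested. Depth was unknown, so it limits the ranks to an extent that cannot be given.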
